A study of Mus musculus with 6 samples.

Results

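Npy, Gal, Nts, Adcyap1 and Crh encode the precursors of 5 neuropeptides: neuropeptide Y, galanin, neurotensin, pituitary adenylate cyclase-activating polypeptide (PACAP) and corticotropin-releasing hormone. They were described here in RNA of neurons cut from mouse dorsal root ganglia after crush of the sciatic nerve or sham surgery. The members were found by gene name, with the number that marks an isoform removed, and are 5 of the 17022 genes in the expression table. All isoforms of a name were summed, 19 for the 5 genes.

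The 2 groups were adult male C57Bl/6 mice, with an age of 4 to 6 weeks in the labels. In the crush group the sciatic nerve had been crushed for 10 seconds, and in the sham group it had been exposed for 10 seconds and left whole. At 7 days after either operation, neurons were cut with a laser from frozen dorsal root ganglia of lumbar levels 3, 4 and 5, taken from the operated side, and their polyadenylated RNA was sequenced. Each group has 3 libraries. No allele or agent was given to either group, and the labels name the strain and the surgery alone. The sources used here do not state whether each library is a separate animal. The p-values therefore describe the spread among these 6 samples only, and that spread may be technical. These ganglia also hold neurons whose axons do not run in the sciatic nerve, and the labels do not say that injured neurons were picked.

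A neuropeptide is cut out of a longer precursor in the secretory pathway, stored in dense-core vesicles and released to act on G protein-coupled receptors. Intact sensory neurons are known above all for calcitonin gene-related peptide (from Calca) and substance P (from Tac1), both carried by nociceptors. Galanin and neuropeptide Y are the textbook examples of peptides that sensory neurons make more of after their axon is cut.

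Values are FPKM, a number of fragments that the authors divided by transcript length and library size, so levels of different genes can be compared per length. FPKM keeps no number of reads, and the depth behind a value is unknown. Total FPKM per library was 316263 to 338365 in the crush libraries and 320947 to 364606 in the sham libraries, and 12087 to 12347 genes reached 1 FPKM. Across genes, the log2 values of 2 crush libraries correlated at 0.993 to 0.996 and those of sham 1 and sham 3 at 0.996, against 0.978 and 0.981 for sham 2 with these; genes are not independent replicates. Sham 2 therefore stands apart from its group, and results are also given without it. The sensory neuron markers were present, the most abundant being Uchl1 (1787 FPKM on average in crush libraries and 1912 FPKM in sham libraries) and Prph (1072 FPKM in crush libraries and 1101 FPKM in sham libraries). Of 11 such markers tested, limma called 1 lower after crush and 0 higher, against 3.78% of all genes called in either direction. All 11 had a negative log2 change (9 with upper-quartile scaling and 7 with quantile normalization), with a median of -0.16, and 3 had an unadjusted p under 0.05: Nefh, Isl1 (log2 change -0.26, limma adjusted p = 0.0760) and Rbfox3 (-0.27, 0.149). The part of this shift in the changes of the peptide genes was not tested. Of all 12289 genes tested, 2158 had an unadjusted limma p under 0.05. The marker called was Nefh, the heavy neurofilament subunit; these marker genes are named after their values were seen (348 FPKM on average in crush libraries and 543 FPKM in sham libraries, log2 change -0.64, adjusted p = 0.0147 by limma with Benjamini-Hochberg adjustment over all genes). Its adjusted p lay above 0.05 without crush 1 (0.101), crush 2 (0.0781), sham 1 (0.0633) or sham 3 (0.0791).

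All 5 peptide genes were higher after crush. Npy rose about 10-fold, to 219 FPKM, Gal and Nts rose more than 3-fold, to 231 and 103 FPKM, and Adcyap1 and Crh rose less than 2-fold, Crh to a level of only 5.94 FPKM. In each of the 5 genes every crush library lay above every sham library. Such separation was seen in 12.2% of all 12289 genes tested, and 2.38% of all genes passed the test upwards. The 5 were chosen as peptides induced by injury, so their shared direction is a description of this set.

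Neuropeptide Y, an inhibitory peptide that acts on Y receptors, showed the largest change. Npy lies on chromosome 6 (mm9, bases 49772210 to 49779442, plus strand, 4 exons). It had 193, 186 and 277 FPKM in the crush libraries, against 21.4, 28.4 and 16.2 FPKM in the sham libraries. Crush 3 was the highest library and the groups were far apart, with the lowest crush library above the highest sham library by a wide margin. The means were 219 ± 50.6 FPKM after crush and 22.0 ± 6.13 FPKM after sham surgery (SD, n = 3 each), a ratio of 9.94. The log2 change was 3.27 (SE 0.23, 95% interval 2.72 to 3.81), with an adjusted p of 0.00509 by limma with Benjamini-Hochberg adjustment over all genes tested. Log2 changes here are of FPKM + 1, which understates the change of low genes. Of all genes tested, Npy ranked 1 by log2 change, and by level it ranked 197 in the crush libraries and 3191 in the sham libraries.

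Galanin is a peptide that acts on receptors of the Galr family. Gal lies on chromosome 19 (mm9, 3409887 to 3414991, minus strand, 6 exons). Gal had 189.5, 207 and 296 FPKM in the crush libraries, against 53.5, 86.4 and 50.4 FPKM in the sham libraries. Crush 3 was again the highest and sham 2 was well above the other 2 sham libraries, and the groups did not overlap. Gal averaged 231 ± 57.2 FPKM after crush and 63.4 ± 19.9 FPKM after sham surgery (SD, n = 3 each), a ratio of 3.64. Its log2 change was 1.86 (SE 0.25, 95% interval 1.28 to 2.45, limma adjusted p = 0.0147), and it ranked 7 of all genes by log2 change. Gal was already high without crush, ranking 1076 by level in the sham libraries and 180 in the crush libraries.

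Neurotensin is a short peptide known from brain and gut that acts on receptors of the Ntsr family. Nts lies on chromosome 10 (mm9, 101944373 to 101953084, minus strand, 4 exons). Nts had 115, 88.8 and 105 FPKM in the crush libraries, against 32.8, 35.6 and 26.1 FPKM in the sham libraries. The crush libraries lay close together, crush 1 was the highest rather than crush 3, and the groups did not overlap. The mean of Nts was 103 ± 13.4 FPKM after crush and 31.5 ± 4.88 FPKM after sham surgery (SD, n = 3 each), a ratio of 3.27. The log2 change was 1.68 (SE 0.14, 95% interval 1.35 to 2.02, limma adjusted p = 0.00515), rank 12 of all genes.

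PACAP, the product of Adcyap1, acts on a receptor that raises cyclic AMP. Adcyap1 lies on chromosome 17 (mm9, 93598635 to 93608219, plus strand, 5 exons). It had 66.4, 64.7 and 86.1 FPKM in the crush libraries, against 41.4, 44.4 and 36.6 FPKM in the sham libraries. The sham libraries were close together and crush 3 stood highest, with no overlap between the groups. Adcyap1 averaged 72.4 ± 11.9 FPKM after crush and 40.8 ± 3.94 FPKM after sham surgery (SD, n = 3 each), a ratio of 1.78. The log2 change was 0.81 (SE 0.13, 95% interval 0.50 to 1.11, limma adjusted p = 0.0248), rank 122 of all genes.

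Corticotropin-releasing hormone is best known as the hypothalamic peptide that starts the stress hormone response. Crh lies on chromosome 3 (mm9, 19593431 to 19595465, minus strand, 2 exons). Crh had 5.60, 6.68 and 5.53 FPKM in the crush libraries, against 2.99, 3.43 and 2.53 FPKM in the sham libraries. Both groups were tight, crush 2 and sham 2 were the highest of their groups, and the groups did not overlap. Its means were 5.94 ± 0.648 FPKM after crush and 2.98 ± 0.450 FPKM after sham surgery (SD, n = 3 each), a ratio of 1.99. The log2 change was 0.80 (SE 0.11, 95% interval 0.54 to 1.07, limma adjusted p = 0.0165), rank 124 of all genes. Crh was the scarcest of the 5, ranking 7488 by level in the crush libraries and 9644 in the sham libraries.

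**Figure D1:**
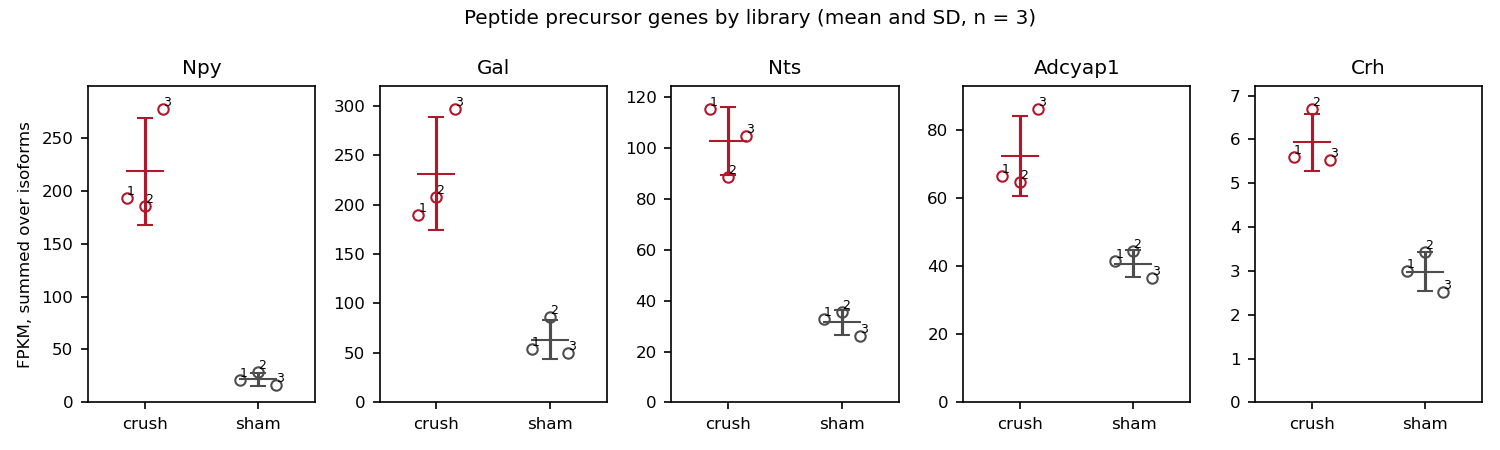
FPKM (vertical axes, each from 0) of Npy, Gal, Nts, Adcyap1 and Crh, 1 point for each of 3 crush and 3 sham libraries, with the mean and its SD. In every panel the 3 crush points lie above the 3 sham points, from Npy (186 to 277 FPKM in crush and 16.2 to 28.4 FPKM in sham libraries) to Crh (5.53 to 6.68 FPKM in crush and 2.53 to 3.43 FPKM in sham libraries).

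Without sham 2, the library that stands apart, the log2 changes were 3.46 for Npy, 2.10 for Gal, 1.77 for Nts, 0.87 for Adcyap1 and 0.88 for Crh, with limma adjusted p of 0.00137, 0.00236, 0.00180, 0.0101 and 0.00458. Sham 2 was the highest sham library for all 5 genes and sham 3 the lowest. The calls of Npy and Nts held when any single library was left out. The calls of Gal, Adcyap1 and Crh were each lost without crush 1, crush 2, crush 3, sham 1 or sham 3, with limma adjusted p of 0.0541 to 0.0680 for Gal, 0.0598 to 0.102 for Adcyap1 and 0.0611 to 0.0795 for Crh, and also when only isoforms with a reference identifier were summed (0.0633, 0.0938 and 0.0741). In RNA of pooled neurons, fewer cells of a type and less RNA per cell cannot be told apart, and the same holds for more cells and more RNA.

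The order of the 5 levels differed between the groups. In the crush libraries Gal and Npy led with ranges that overlapped, followed by Nts at 88.8 to 115 FPKM, Adcyap1 at 64.7 to 86.1 FPKM and Crh, and the ranges of Nts, Adcyap1 and Crh did not overlap. In the sham libraries Gal led, followed by Adcyap1 at 36.6 to 44.4 FPKM, Nts at 26.1 to 35.6 FPKM, Npy at 16.2 to 28.4 FPKM and Crh. There the ranges of Nts and Npy overlapped, although Nts was the higher of the pair within each sham library. The ratio of Npy to Gal FPKM was 1.02, 0.898 and 0.935 in the crush libraries and 0.399, 0.329 and 0.322 in the sham libraries. The ratio of Npy to Nts FPKM was 1.67, 2.10 and 2.64 in the crush libraries and 0.653, 0.798 and 0.621 in the sham libraries. Npy was thus near the level of Gal and above Nts in every crush library, and below both in every sham library.

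The sizes of the 5 changes were compared in pairs. Each of 10 pairs was compared by the log2 of the ratio of its members (FPKM + 1) with a 2-sided exact permutation test over samples, which cannot go below p = 0.1 with 3 libraries a group. In 8 pairs the crush and sham libraries did not overlap, which gives that smallest p of 0.1 in the exact test (0.125 after Benjamini-Hochberg adjustment over the 10 pairs). In this measure the change of Npy exceeded that of Gal by 1.40, that of Nts by 1.58 and those of Adcyap1 and Crh by 2.46 each. The other 2 pairs overlapped. Gal over Nts was 1.64, 2.33 and 2.82 in the crush libraries and 1.64, 2.43 and 1.93 in the sham libraries, a difference in log2 of 0.18 (exact permutation p = 0.6). Adcyap1 over Crh differed by 0.0031 in log2 (exact permutation p = 1.0). An exact test with 3 libraries a group cannot pass 0.05, so the pairs were ordered by size alone.

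Set beside the other listed peptide precursors, the 5 genes took a larger share of the summed FPKM after crush. The 5 were chosen as peptides induced by injury, so a larger share follows from that choice and is a description. The table holds 33 peptide precursor genes from a fixed list, the 5 and 28 others. The 5 held 27.9%, 26.9% and 31.8% of the summed FPKM of the 33 in the crush libraries, against 9.26%, 9.06% and 7.69% in the sham libraries. These shares are close within each group and far apart between the groups. They averaged 28.9 ± 2.60% after crush and 8.67 ± 0.855% after sham surgery (SD, n = 3 each). Calca held 52.8 ± 1.86% after crush and 66.8 ± 1.60% after sham surgery, and Tac1 held 10.8 ± 0.397% after crush and 14.1 ± 0.337% after sham surgery (SD, n = 3 each). A share falls when another gene of the sum rises. The summed FPKM of the 28 others was 1471 to 1649 in the crush libraries and 1490 to 1989 in the sham libraries, ranges that overlap.

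**Figure D2:**
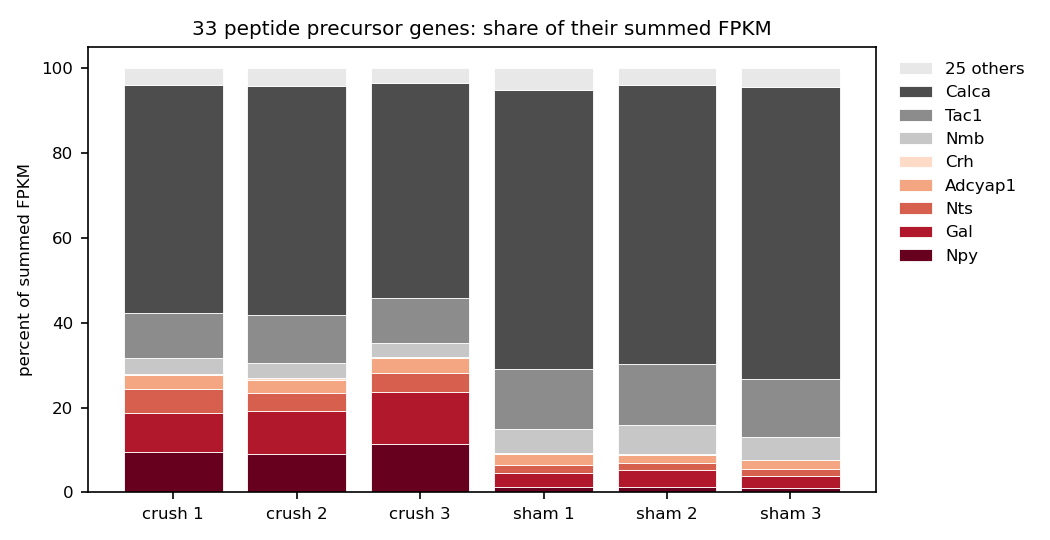
Percent of the summed FPKM of 33 peptide precursor genes (vertical axis, stacked to 100) in each of 3 crush and 3 sham libraries, with the 5 members, Calca, Tac1, Nmb and the sum of the remaining genes as segments. The 5 members together hold 26.9% to 31.8% of the crush bars and 7.69% to 9.26% of the sham bars, and Calca is the largest segment of every bar.

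By rank among the 33, Calca and Tac1 were first and second in both groups. In the crush libraries Gal was 3, Npy 4, Nts 5, Adcyap1 7 and Crh 12. In the sham libraries Gal was 4, Adcyap1 5, Nts 7, Npy 8 and Crh 14. Adcyap1 stood lower in this order after crush, behind Npy and Nts, although its own FPKM was higher. Nmb, the neuromedin B precursor, was 6 in crush and 3 in sham libraries.

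Of the other 28 precursors 12 passed the filter of a mean of 1 FPKM, and 1 of these passed the test upwards and 0 downwards, with 4 at an unadjusted limma p under 0.05. Their median log2 change was -0.11, against -0.02 over all genes tested, of which 3.78% passed in either direction. Over all genes tested, 2158 of 12289 had an unadjusted limma p under 0.05. Among the 12, the gene that passed was Grp, the gastrin-releasing peptide precursor, which carries itch signals from sensory neurons to the spinal cord. Grp had 1.47, 1.34 and 2.29 FPKM in the crush libraries, against 0.507, 0.573 and 0.311 FPKM in the sham libraries. Both levels are low, the groups did not overlap, and Grp passed the filter only through the crush libraries. Its log2 change was 0.87 (limma adjusted p = 0.0309, and 0.0632 to 0.117 without crush 1, crush 2, crush 3, sham 1 or sham 3).

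Of the precursors that did not pass, Calca had a log2 change of -0.10 (limma adjusted p = 0.778), Tac1 of -0.14 (0.681) and Nmb of -0.47 (0.244). Ucn, which encodes urocortin, a relative of corticotropin-releasing hormone that binds the same receptors, had 4.84, 3.41 and 4.59 FPKM in the crush libraries, against 1.097, 2.22 and 0.300 FPKM in the sham libraries. Its groups did not overlap, but the sham libraries were widely spread, and its log2 change of 1.34 had a limma adjusted p of 0.0726. These 4 were singled out after their values were seen, by abundance or by size of change.

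The promoters of the members are shown as a description, and shared regulation was not tested. Each line gives the 250 bases before the transcript start from RefSeq (GRCm38.p6, another build than the mm9 of the exon coordinates above), 5′ to 3′ on the strand of the gene. Of the 5 genes, 4 matched an entry, and Adcyap1 has 2 starts, of which the first is shown. The positions are chr6:49822460-49822709 (plus strand) for Npy, chr19:3414545-3414794 (minus strand) for Gal, chr10:102490419-102490668 (minus strand) for Nts and chr17:93198767-93199016 (plus strand) for Adcyap1. Capitals mark matches on either strand to 4 motifs: TGACGTCA, the full cyclic AMP response element; TGACG, its first 5 letters; TGANTCA, the AP-1 motif; and TTCNNNGAA, the STAT motif.
Npy: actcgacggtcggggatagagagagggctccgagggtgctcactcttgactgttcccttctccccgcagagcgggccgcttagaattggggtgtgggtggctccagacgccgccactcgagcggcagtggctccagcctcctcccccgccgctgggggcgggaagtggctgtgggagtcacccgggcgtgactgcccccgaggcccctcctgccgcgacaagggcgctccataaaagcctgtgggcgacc
Gal: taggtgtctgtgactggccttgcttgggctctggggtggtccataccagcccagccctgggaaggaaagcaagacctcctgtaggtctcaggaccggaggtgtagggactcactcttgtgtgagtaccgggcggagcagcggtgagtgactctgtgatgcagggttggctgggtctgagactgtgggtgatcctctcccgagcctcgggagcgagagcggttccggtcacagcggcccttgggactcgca
Nts: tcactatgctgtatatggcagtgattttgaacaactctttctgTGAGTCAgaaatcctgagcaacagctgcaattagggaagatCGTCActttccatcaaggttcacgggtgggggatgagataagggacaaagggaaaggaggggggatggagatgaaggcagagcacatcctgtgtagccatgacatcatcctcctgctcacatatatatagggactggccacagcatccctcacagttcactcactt
Adcyap1: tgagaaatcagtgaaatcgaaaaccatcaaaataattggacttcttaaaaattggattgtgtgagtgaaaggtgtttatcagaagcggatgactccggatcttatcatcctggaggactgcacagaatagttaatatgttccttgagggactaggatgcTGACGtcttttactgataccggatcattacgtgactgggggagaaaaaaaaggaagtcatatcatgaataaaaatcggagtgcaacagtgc

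Nts and Adcyap1 hold a short cyclic AMP motif and Nts an AP-1 motif. In Nts, TGACG lies on the opposite strand, read as CGTCA, and begins 166 bases before the start, and TGANTCA begins 207 bases before it, as TGAGTCA. In Adcyap1, TGACG begins 91 bases before the first start, and the same letters lie 242 bases before the second start. These motifs were in 17.9% (TGACG) and 6.73% (TGANTCA) of 32536 promoter windows of the same length, and TGACGTCA was in 1.56% and TTCNNNGAA in 7.04%. The Npy and Gal windows hold none of the 4, and TGACGTCA and TTCNNNGAA are in none of the windows. A match is a description of the letters and not a site. The windows were placed before RefSeq starts and not before the starts of isoforms assembled by the authors. Abundant isoforms that begin further into the gene, such as Npy_j2, Gal_j1 and Adcyap1_j3 below, were not searched at their own starts. The windows also differ in base composition, with 69.2% G and C in Npy, 62.4% in Gal, 48.0% in Nts and 39.6% in Adcyap1, against a median of 52.4% over all windows.

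The change of each gene was next followed to its isoforms. The 5 genes have 19 isoforms in the table, of which 14 averaged at least 1 FPKM and were tested. In 13 of the 14 all crush libraries lay above all sham libraries, against 7.95% of 24485 isoforms tested. One of the 13, Npy_j3, passed the filter only through the crush libraries (14.5 FPKM on average in crush libraries and 0.923 FPKM in sham libraries), so it had to differ and its place in the count is no support. The others belong to the same 5 genes, chosen as peptides induced by injury, and isoforms of a gene share exons. The count is therefore a description of this set and not of independent members. Only 2 passed the limma test upwards after adjustment over all isoforms, both of Npy, and 0.0531% of all isoforms did. Each gene has 1 reference isoform, which carries the bare gene name, and isoforms assembled by the authors, which carry a number.

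Npy had 4 isoforms that share the last 3 exons, apart from the end of the last one, and differ in where the first exon lies. Npy_j2, whose first exon is 6 bases long and begins 955 bases after the reference start, was the most abundant at 105, 85.6 and 117 FPKM in the crush libraries, against 9.498, 12.7 and 7.37 FPKM in the sham libraries. Npy_j1, which begins 708 bases after it, had 48.0, 49.5 and 66.7 FPKM in the crush libraries, against 5.91, 6.96 and 5.08 FPKM in the sham libraries. Both were far higher in every crush library, with log2 changes of 3.27 and 2.99 (limma adjusted p = 0.0251 each). Both calls were lost without crush 1, crush 2, crush 3, sham 1 or sham 3, with adjusted p of 0.0885 to 0.259 for Npy_j2 and 0.0604 to 0.149 for Npy_j1.

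The reference Npy isoform had 35.7, 41.2 and 63.3 FPKM in the crush libraries, against 5.08, 6.89 and 3.76 FPKM in the sham libraries, and its log2 change of 2.92 missed the threshold (limma adjusted p = 0.0534). Npy_j3 was low and uneven, with 4.48, 9.52 and 29.5 FPKM in the crush libraries, against 0.879, 1.89 and a listed 0 in the sham libraries. Npy_j2 made up 47.6 ± 6.12% of Npy FPKM after crush and 44.8 ± 0.545% after sham surgery (SD, n = 3 each), and the 2 shares overlapped (exact permutation p = 0.7). Outside its first exon of 6 bases, Npy_j2 shares every exon with the reference isoform, and the first exon of Npy_j3 has 4 bases. So few bases set these isoforms apart that their levels and shares, and the call of Npy_j2, may not be those of separate transcripts.

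**Figure D3:**
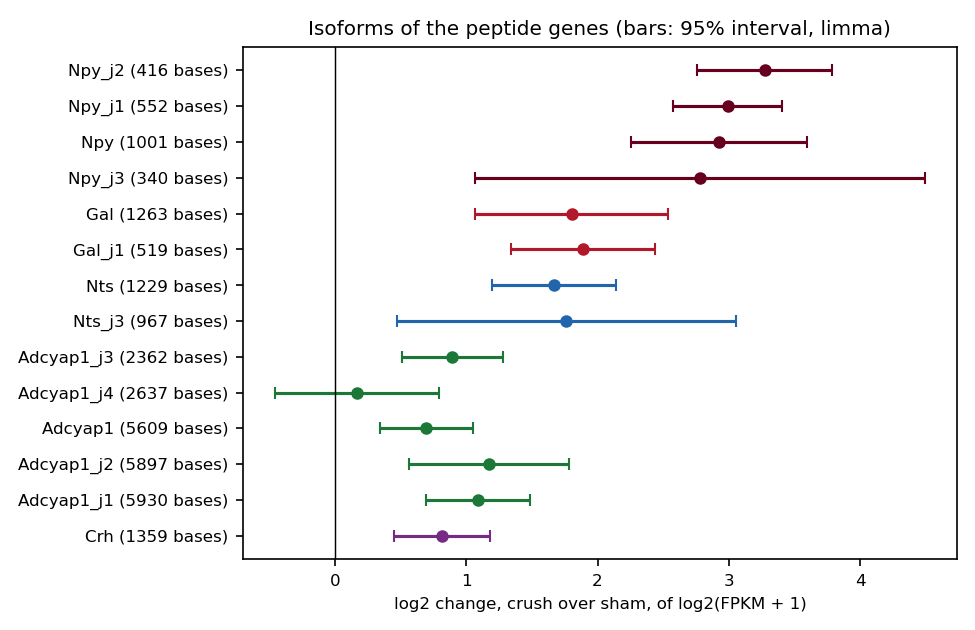
Log2 change, crush over sham, of log2(FPKM + 1) for the 14 tested isoforms of the 5 genes (horizontal axis), with bars for the 95% interval of limma and colours for genes. The reference Npy isoform, Npy_j1 and Npy_j2 lie from 2.92 to 3.27, Npy_j3, which passed the filter only through the crush libraries, lies at 2.78 with an interval of 1.07 to 4.49, the Gal and Nts isoforms near 1.8, from 1.67 to 1.89, and the interval of Adcyap1_j4, from -0.45 to 0.79, includes 0.

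Gal had 2 isoforms of near equal level. The reference isoform had 90.2, 108 and 153 FPKM in the crush libraries, against 27.6, 47.4 and 24.98 FPKM in the sham libraries. Gal_j1, which starts 1625 bases further into the gene and lacks the first 2 exons of the reference isoform, had 99.3, 99.4 and 143 FPKM in the crush libraries, against 25.9, 39.0 and 25.4 FPKM in the sham libraries. Both were higher in every crush library, by 1.80 and 1.89 in log2 (limma adjusted p = 0.143 and 0.0715). The reference isoform held 50.5 ± 2.50% of Gal FPKM after crush and 52.0 ± 2.64% after sham surgery (SD, n = 3 each, exact permutation p = 0.6). The first exon of Gal_j1 begins at base 1625 and the matching reference exon at 1642, and both end at 1696. Its other exons are those of the reference isoform, so the levels and shares of the 2 have the limit given for Npy_j2.

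Nts rested on its reference isoform, with 106, 80.7 and 96.7 FPKM in the crush libraries, against 29.9, 35.6 and 22.3 FPKM in the sham libraries (log2 change 1.67, limma adjusted p = 0.0715). That isoform held 91.5 ± 0.530% of Nts FPKM after crush and 92.2 ± 7.36% after sham surgery (SD, n = 3 each). Nts_j3 had 9.18, 6.00 and 5.81 FPKM in the crush libraries, against 2.62, a listed 0 and 2.43 in the sham libraries. Its first exon has 5 bases, so its level has the limit given for Npy_j2. The 3 further Nts isoforms averaged under 1 FPKM and begin far upstream, at -78573 to -78386 bases from the reference start. Crh rested on its reference isoform too, with 5.26, 6.45 and 5.21 FPKM in the crush libraries, against 2.95, 3.23 and 2.18 FPKM in the sham libraries (log2 change 0.82, limma adjusted p = 0.165), and its 2 others stayed at or below 0.345 FPKM.

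Adcyap1 was the most divided, with 5 isoforms tested. Adcyap1_j3, which starts 2037 bases into the gene, had 37.7, 38.5 and 52.1 FPKM in the crush libraries, against 22.0, 25.1 and 20.1 FPKM in the sham libraries. Adcyap1_j4, which starts 3071 bases into the gene and has 3 exons, had 9.48, 9.44 and 15.5 FPKM in the crush libraries, against 9.21, 13.1 and 7.84 FPKM in the sham libraries. The groups are apart for the first and overlap for the second. Adcyap1_j3 had a log2 change of 0.89 (limma adjusted p = 0.158) and Adcyap1_j4 of 0.17 (95% interval -0.45 to 0.79, limma adjusted p = 0.910). The reference isoform and the 2 with an earlier start, Adcyap1_j1 and Adcyap1_j2, had log2 changes of 0.70, 1.09 and 1.18 (limma adjusted p = 0.204, 0.111 and 0.212).

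**Figure D4:**
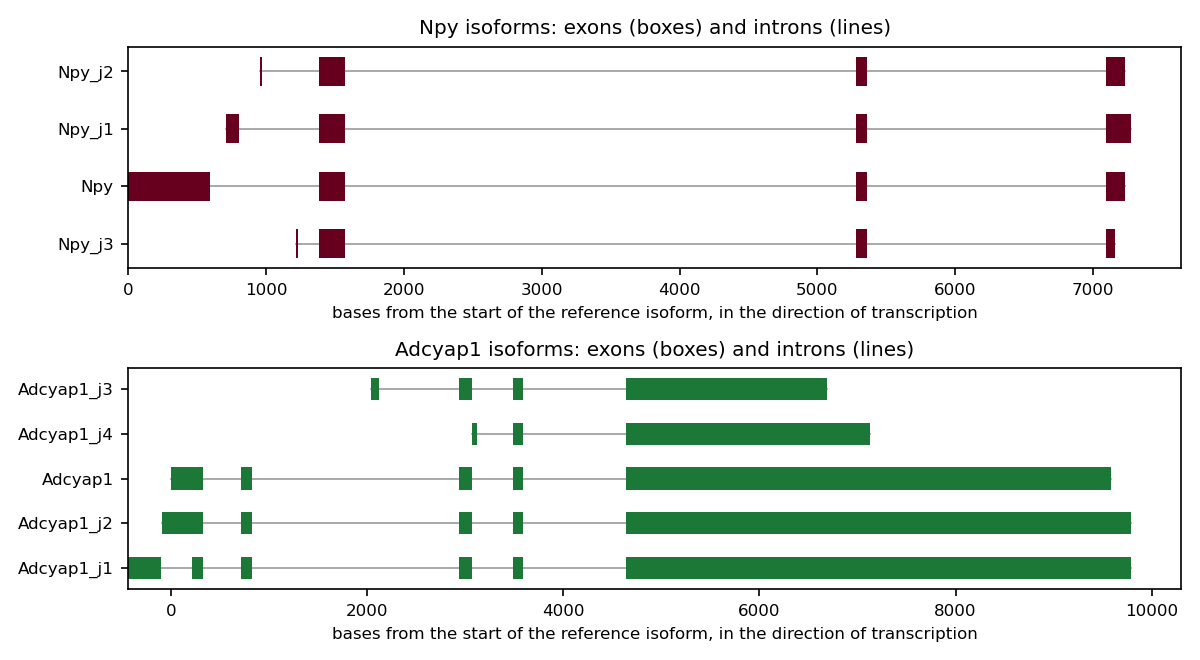
Exons (boxes) and introns (lines) of the Npy and Adcyap1 isoforms, as the distance in bases from the start of the reference isoform in the direction of transcription; the shortest exons are widened so that they can be seen. The 4 Npy isoforms share the place of their last 3 exons and differ in the first, and Adcyap1_j3 and Adcyap1_j4 start 2037 and 3071 bases into the gene.

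Whether the isoforms of a gene changed by different amounts was tested with limma's diffSplice, which called 0.519% of 6746 genes. It called none of the 4 members with at least 2 tested isoforms, and 1 of them, Adcyap1, had an unadjusted p under 0.05. Of the 6746 genes, 420 had such a p. For Adcyap1 the diffSplice F test of limma gave an unadjusted p of 0.0247 and an adjusted p of 0.641, against an adjusted p of 0.0258 when libraries were weighted by how well they fitted. For Npy, Gal and Nts the adjusted p of diffSplice was 1.0. Adcyap1_j3 held 56.8%, 59.5% and 60.5% of Adcyap1 FPKM in the crush libraries, against 53.0%, 56.6% and 55.0% in the sham libraries. These shares lie close and just do not overlap, with a difference of 4.05 percentage points (exact permutation p = 0.1, the smallest possible, and 0.5 after adjustment over the 5 genes).

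In the authors' deposited table all 4 Npy and all 5 Adcyap1 isoforms have a test status of FAIL, with a log2 change listed as 0 and a p and q of 1, as 27416 of 60744 isoforms do (45.1%). The authors' deposited table gives log2 changes of 2.23 and 2.14 for the Gal reference isoform and Gal_j1, 1.86 for Nts and 1.199 for Crh, each with a q listed at or below 8.61e-09. Those values come from the authors' pooled estimates with no pseudocount, and the values in the text above come from single libraries.

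Of 18 receptor genes listed for the 5 peptides, 10 were in the table and 5 averaged at least 1 FPKM. Of these 5, limma called 1 upwards and 1 downwards, with 3 at an unadjusted p under 0.05, while 3.78% of all genes were called in either direction. An unadjusted p under 0.05 was seen in 2158 of all 12289 genes tested. Npy5r, Ntsr1, Adcyap1r1, Crhr1 and Crhr2 averaged under 1 FPKM, Galr2 among others was not analysed here, and the median log2 change of the 5 was 0.09. Npy1r, the Y1 receptor, had 12.1, 14.9 and 15.1 FPKM in the crush libraries, against 9.06, 6.91 and 9.20 FPKM in the sham libraries. Ntsr2, a neurotensin receptor, had 2.70, 3.08 and 2.33 FPKM in the crush libraries, against 4.73, 5.32 and 4.43 FPKM in the sham libraries. Npy1r was higher in every crush library and Ntsr2 lower in every one.

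The log2 change of Npy1r was 0.68 (SE 0.13, limma adjusted p = 0.0408) and that of Ntsr2 -0.66 (SE 0.10, limma adjusted p = 0.0232). Receptor and peptide thus changed the same way for Npy and Npy1r and opposite ways for Nts and Ntsr2. Both receptor calls were lost without crush 1, crush 2, crush 3, sham 1 or sham 3 (adjusted p 0.0889 to 0.169 for Npy1r and 0.0600 to 0.109 for Ntsr2), and with reference isoforms alone Npy1r had a log2 change of 0.39 (adjusted p = 0.413). Npy2r, the Y2 receptor, had 6.76, 6.73 and 7.59 FPKM in the crush libraries, against 5.47, 3.91 and 4.54 FPKM in the sham libraries. Its groups did not overlap and its log2 change of 0.52 did not pass (limma adjusted p = 0.0620). Galr1, a galanin receptor, had 1.02, 1.11 and 1.12 FPKM in the crush libraries, against 0.501, 1.42 and 1.06 FPKM in the sham libraries, and Sort1, which binds neurotensin as sortilin, had 4.83, 3.73 and 3.87 FPKM in the crush libraries, against 4.67, 3.46 and 5.65 FPKM in the sham libraries. Both overlapped between the groups.

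**Figure D5:**
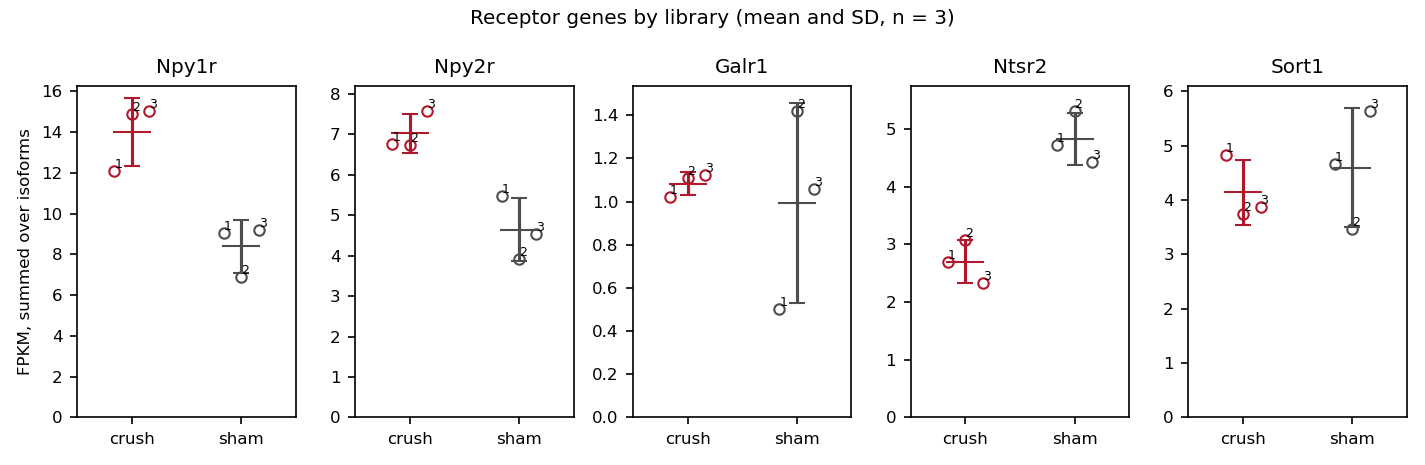
FPKM (vertical axes, each from 0) of the 5 tested receptors of the peptides, 1 point for each of 3 crush and 3 sham libraries, with the mean and its SD. Npy1r and Npy2r are higher in all 3 crush libraries (12.1 to 15.1 FPKM in crush and 6.91 to 9.20 FPKM in sham libraries for Npy1r), Ntsr2 is lower (2.33 to 3.08 FPKM in crush and 4.43 to 5.32 FPKM in sham libraries), and Galr1 and Sort1 overlap.

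Genes that process and store peptides were called in both directions. Of 28 listed genes for precursor cleavage and dense-core vesicles, 24 were tested, and limma called 1 higher and 2 lower. That is 12.5% called, against 3.78% of all genes in either direction, and the median log2 change of the 24 was -0.13. At an unadjusted limma p under 0.05 there were 9 of the 24, against 2158 of all 12289 genes tested. The 1 that rose was Syt4, a synaptotagmin of dense-core vesicles, with 129 ± 5.38 FPKM after crush and 94.8 ± 7.53 FPKM after sham surgery (SD, n = 3 each; log2 change 0.45, limma adjusted p = 0.0369). The 2 that fell were the granins Chga and Chgb, acidic proteins that pack the vesicle core. Chga averaged 63.6 ± 2.65 FPKM after crush and 91.6 ± 10.7 FPKM after sham surgery (log2 change -0.51, limma adjusted p = 0.0379). Chgb averaged 25.1 ± 1.91 FPKM after crush and 34.5 ± 2.60 FPKM after sham surgery (log2 change -0.44, limma adjusted p = 0.0420). All 3 calls were lost without crush 1, crush 2, crush 3, sham 1 or sham 3 (adjusted p 0.0732 to 0.177 for Syt4, 0.0799 to 0.161 for Chga and 0.0943 to 0.158 for Chgb), and Syt4 had a log2 change of -0.03 with reference isoforms alone.

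The convertases that cut these precursors did not pass the test, with log2 changes of 0.07 for Pcsk1 (limma adjusted p = 0.745) and -0.16 for Pcsk2 (0.349). Cpe, which trims the cut ends, had a log2 change of -0.24 (limma adjusted p = 0.166), and Pam, which amidates peptides such as neuropeptide Y and galanin, of 0.05 (0.741). Vgf, itself a source of peptides, had 145, 158 and 231 FPKM in the crush libraries, against 96.7, 107 and 93.1 FPKM in the sham libraries. Its groups did not overlap and its log2 change of 0.81 missed the threshold (limma adjusted p = 0.0588). These 5 were singled out after their values were seen. Of 13 listed peptidases, 10 were tested and limma called 0, while 3.78% of all genes were called in either direction. An unadjusted p under 0.05 was seen in 2158 of all 12289 genes tested, and in 2 of the 10 peptidases. The smallest adjusted p was that of Nln, or neurolysin, which cleaves neurotensin (3.34 ± 0.189 FPKM after crush and 2.43 ± 0.209 FPKM after sham surgery, SD, n = 3 each; log2 change 0.34, adjusted p = 0.0761).

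The genes most like each member over the 6 libraries were found by the Euclidean distance between log2(FPKM + 1) values centred on their own mean. For Npy they were Sprr1a at a distance of 0.96, Car3 at 1.02 and Anxa10 at 1.69. Sprr1a, a small proline-rich protein, had 445, 454 and 640 FPKM in the crush libraries, against 88.9, 110 and 72.3 FPKM in the sham libraries, so it lay above Npy in every library. For Gal they were Atf3 at 0.43, Adam8 at 0.48 and Lipn at 0.58, and for Nts Cckbr at 0.25, Atf3 at 0.40 and Car1 at 0.45. Atf3, a stress-induced transcription factor, had 166, 153 and 196 FPKM in the crush libraries, against 50.9, 64.6 and 36.1 FPKM in the sham libraries, and was the one gene named beside 2 members. Cckbr, a receptor for cholecystokinin, had 14.5, 13.0 and 15.8 FPKM in the crush libraries, against 3.99, 3.97 and 3.29 FPKM in the sham libraries. For Adcyap1 they were Rnf122 at 0.09, Grp at 0.11 and Nfil3 at 0.11, and for Crh Ms4a7 at 0.24, Tgif1 at 0.25 and Tyrobp at 0.26. Anxa10, Lipn and Grp passed the filter only through the crush libraries, with 0.438, 0.792 and 0.4635 FPKM on average in the sham libraries. The added 1 FPKM shrinks the change of such low genes, so nearness here is not an equal fold change. The crush over sham ratio was 3.67 for Grp against 1.78 for Adcyap1, and 7.26 for Lipn against 3.64 for Gal.

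Macrophage markers moved with the group as well. Of 13 listed, 11 were in the table and 10 were tested. All 10 had a positive log2 change, with a median of 0.95, and limma called 9 higher after crush. Of all genes tested, 2.38% were called higher and 3.78% in either direction. Tyrobp, named beside Crh, is 1 of them. The summed FPKM of the 11 was 149 to 164 in the crush libraries and 68.9 to 81.8 in the sham libraries. The most abundant was Lyz2, at 46.9 and 25.6 FPKM on average in crush and sham libraries, the least Cd14, at 1.25 and 0.648 FPKM, both named after their values were seen, and Cd68 was not analysed here. The count of 9 was 5 without crush 1, crush 2 or sham 3, 6 without crush 3, 7 without sham 1 and 10 without sham 2. The part of macrophage RNA in the changes of the 5 peptide genes was not tested. For the marker counts that follow, 2158 of all 12289 genes tested had an unadjusted limma p under 0.05. Of 12 Schwann and satellite glia markers limma called 0 (3 at an unadjusted p under 0.05), with a summed FPKM of 3165 to 3466 in the crush libraries and 3073 to 4242 in the sham libraries. Of 11 fibroblast and vessel markers it called 0 (5 at an unadjusted p under 0.05), with 222 to 229 FPKM in the crush libraries and 159 to 196 FPKM in the sham libraries. Of 2 lymphocyte and neutrophil markers tested it called 0 (0 at an unadjusted p under 0.05), with 4.60 to 13.2 FPKM over 4 genes in the crush libraries and 7.61 to 27.9 FPKM in the sham libraries.

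Reads were not stated to keep their strand. No exon of Npy, Gal or Nts overlaps another locus with values. Of the Adcyap1 exon bases 7.93% and of the Crh exon bases 31.0% overlap an unnamed locus, whose highest value in any library was 0.127 FPKM beside Adcyap1 and 0.0929 FPKM beside Crh. Both of these loci lie on the same strand as the member, so strand could not tell them apart.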

How the data were processed

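The 3 crush and 3 sham libraries were grouped by the treatment in the labels. Expression is FPKM per isoform and library, as deposited by the authors; TopHat 1.3.2, Cufflinks 1.1.0, Cuffdiff 1.2.1 and build mm9 are named in the submitters' processing notes. The authors' deposited table also holds, from pooled groups, the log2 fold change of each isoform with its p-value and q-value, quoted here only as theirs. Per the labels' protocols the libraries were barcoded, mixed and run on 3 lanes. The depth is unknown, since FPKM keeps no read counts, and no counting interval was computed here. The authors' deposited FPKM interval for each isoform and library did not enter the tests. Batches of surgery or preparation are not given in the sources used here.

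FPKM was summed over the isoforms of a gene name (60744 isoforms, 17022 genes). Features that averaged 1 FPKM or more across the 6 libraries entered limma 3.58.1 (R 4.3.3) on the log2(FPKM + 1) scale (mean-variance trend, 2-sided, Benjamini-Hochberg threshold 0.05), isoform differences with diffSplice, and single values with exact permutation tests (scipy 1.17.1). All genes entered each fit. On simulated data over 12289 genes, with the crush over sham design, limma recovered 94.0% to 98.0% of log2 changes of 1 and 100.0% of changes of 2, with 2.46% to 7.98% of calls false; over 6746 genes diffSplice recovered at least 85.5% of changes of 2, with 18.9% to 23.6% of calls false, above its threshold. When libraries were weighted by how well they fitted, sham 2 had a weight of 0.162 and crush 1 of 2.86. Whether the recovered and false percentages hold for libraries that differ in this way was not tested. Alternatives were a pseudocount of 0.1, no filter, upper-quartile and quantile scaling, reference isoforms alone and a replicate block. Further alternatives were no trend, sample weights and leaving out each library.

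The members and lists were chosen with earlier results of these data known. The genes named are the members, their isoforms of at least 1 FPKM, up to 4 passing genes per list and direction (or the one of smallest adjusted p) and the 3 nearest genes of each member; other names are said to be chosen after their values were seen, and all receptors tested are given. Promoters are from RefSeq (GRCm38.p6) and were searched for motifs on both strands; a full match of TGACGTCA also matches TGACG.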

Additional observations from a re-analysis of the deposited data

How the results depend on the processing

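The 5 members kept their direction under every alternative run, and all 5 passed the limma threshold under a pseudocount of 0.1, no filter, upper-quartile scaling, quantile normalization, no mean-variance trend, sample weights and without sham 2. Summing only isoforms with a reference identifier, Gal had a log2 change of 1.80 (adjusted p = 0.0633), Adcyap1 of 0.70 (0.0938) and Crh of 0.82 (0.0741). With a replicate block, they had 1.86 (0.0667), 0.81 (0.117) and 0.80 (0.0563). Leaving out 1 library gave 3.07 to 3.46 for Npy, 1.67 to 2.10 for Gal, 1.56 to 1.79 for Nts, 0.68 to 0.88 for Adcyap1 and 0.72 to 0.88 for Crh. Same-numbered libraries were not the most alike: their deviations from the group means correlated at 0.372, -0.309 and -0.486 across genes. No crush library correlated best with its own number (crush 3 with sham 2, 0.590). With 3 libraries a group and sham 2 apart, this check cannot exclude a pairing. The block moved calls to 45 higher and 5 lower, against 293 and 171 in all. They were 52 and 15 with reference isoforms alone and 734 and 695 with sample weights, and 43 to 607 and 10 to 567 leaving out 1 library; higher calls were 43, 69 and 76 without crush 1, 2 and 3, and 98, 607 and 64 without sham 1, 2 and 3.

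Of the listed genes, other precursors had 0 calls with reference isoforms alone and with the block, 2 with sample weights and 0 to 2 leaving out 1 library. Receptors had 0, 0 and 0 to 3 under reference isoforms, the block and leaving out 1 library, processing genes 0, 0 and 0 to 6 and 7 with sample weights, and peptidases 1 with sample weights and 0 to 0 leaving out 1 library. The diffSplice adjusted p of Adcyap1 was 0.0258 with sample weights and 0.530 to 1.0 leaving out 1 library. Signs turned for small, uncalled differences: leaving out 1 library, Adcyap1_j4 ran from -0.052 (without crush 3) to 0.36 (without sham 2), the Npy_j2 share from -0.631 (without crush 1) to 5.35 percentage points, the Nts share from -4.11 to 3.204 (without sham 2), the Crh share from -1.44 (without sham 3) to 4.60, and Adcyap1 over Crh from -0.17 (without crush 3, and -0.01 without sham 2) to 0.15. Adcyap1 over Crh was also -0.16 with a pseudocount of 0.1 and -0.12 with reference isoforms alone. Syt4, called, turned to -0.031 with reference isoforms alone. The cause was not tested. The leading isoform's share cannot be formed from reference isoforms alone, with 1 per gene. The 3 libraries a group limit every exact test to p = 0.1, and the read counts behind Crh and the receptors are unknown. The authors deposited an FPKM interval for each isoform and library. For the reference Crh isoform, the interval of sham 2 (2.05 to 4.41 FPKM) overlapped that of every crush library. The crush intervals were 3.49 to 7.02 FPKM in crush 1, 4.31 to 8.59 FPKM in crush 2 and 3.44 to 6.98 FPKM in crush 3. The interval of sham 1 (1.87 to 4.02 FPKM) overlapped those of crush 1 and crush 3 and not that of crush 2. The interval of sham 3 (1.34 to 3.02 FPKM) overlapped none of them.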
